A study of Danio rerio with 55 samples.

Results

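The gene wnt5b (ENSDARG00000102464) was followed through all RNA-seq libraries of the series, as 1 gene of 32266 in the count files. It was chosen by earlier results of these data, for a genotype difference that was large at 3.3 hours post fertilization (hpf) and small at 24 hpf. Wnt5b is a secreted ligand best known for non-canonical Wnt signalling: it binds Frizzled receptors together with the co-receptors Ror and Ryk, and acts through the planar cell polarity machinery rather than through beta-catenin. In zebrafish it is needed for the cell movements that lengthen the tail and for cartilage shape. Ezh2 is the catalytic subunit of Polycomb repressive complex 2, which methylates histone H3 at lysine 27, a mark of repressed genes.

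The libraries were made from whole zebrafish embryos of a TU/TLF mixed background, wildtype or MZezh2 mutant, at 0, 3.3 and 24 hpf. MZezh2 mutants lack functional Ezh2 from both the mother and the embryo; they carry the ezh2 allele hu5670, a premature stop codon in the catalytic domain, and came from parents whose germ line had been replaced with mutant cells. Wildtype embryos were the offspring of fish that carried a wildtype germ line made in the same way. Wildtype embryos gave 5 libraries each at 0 and 3.3 hpf and 6 at 24 hpf. MZezh2 mutants gave 6 at 0 hpf and 7 at each later stage. Every library came from pooled embryos, and p-values measure only the spread between such pools. At 0 hpf the RNA is what the mother laid down in the egg, whereas 3.3 hpf lies at the onset of transcription from the embryo's own genome.

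Counts on genes ranged from 2736282 to 24041447 per library, and replicates 1 and 2 were the deepest in every group. Reads on the strand opposite to the annotated genes made up 1.48 to 18.8% of the stranded counts. The level of ezh2 RNA itself divided the mutant libraries. At 0 hpf, 3 mutant libraries held 2.85 to 4.38 CPM of ezh2 (CPM, counts scaled to library size, here by TMM within the stage), whereas the other 3 held 269 to 364 CPM, within the wildtype range of 198 to 411 CPM. At 3.3 hpf, 4 mutant libraries held 3.81 to 5.86 CPM and 3 held 190 to 254 CPM, against 242 to 532 CPM in wildtype. At 24 hpf, 4 held 34.9 to 48.3 CPM and 3 held 102 to 124 CPM, against 124 to 216 CPM. All these mutant libraries bear the same genotype label, and the cause of the split between them was not tested. The labels were taken as given, and the ezh2 level was not used as a strict check of them. Results are given below also without the mutant libraries at or above 100 CPM. Egg transcripts marked the early samples: the summed level of 9 oocyte genes lay between 4777 and 9217 CPM in all libraries of 0 and 3.3 hpf and between 169 and 299 CPM at 24 hpf.

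At 0 hpf, wnt5b was nearly absent from wildtype eggs and present in every mutant library. The 5 wildtype libraries held 6, 8, 3, 6 and 8 wnt5b counts, which correspond to 0.274, 0.340, 0.555, 0.448 and 0.646 CPM. Counting error alone allows 0.114 to 1.62 CPM for the library with 3 counts (95% Poisson interval). The 6 mutant libraries held 92 to 258 counts, and their levels ran from 5.78 CPM over a median of 13.2 CPM to 23.3 CPM. The lowest mutant library therefore lay above the highest wildtype library, with means of 0.452 ± 0.152 CPM (SD, n = 5) in wildtype and 13.9 ± 6.57 CPM (SD, n = 6) in mutants. Such a complete separation with mutants on top was found for 5.72% of the 16489 genes tested at this stage.

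The gene was chosen on the later stages and only the contrast at 0 hpf was tested, but this test is not independent of that choice, since the ranges at 0 and 3.3 hpf overlapped in both genotypes. In addition, wnt5b passed the count filter at 0 hpf through its mutant libraries. The log2 fold change of wnt5b was 4.97 (SE 0.470), which is 31.3-fold with a 95% interval of 16.5 to 59.3, and the adjusted p was 0.000153 in edgeR's quasi-likelihood F test. Of all genes tested, 6.06% were called higher in mutants at 0 hpf, and 0.17% were called lower. Here and below, a gene counts as called when its p, adjusted over all genes tested at the stage, lay under 0.05 and its fold change reached 1 or more on the log2 scale in either direction. By fold change wnt5b stood at rank 73 from the top. With only the 3 mutant libraries with ezh2 under 100 CPM, the log2 fold change was 4.93 (SE 0.536, edgeR adjusted p = 0.00308). Replicates 1 and 2 alone gave 4.81 (SE 0.550, edgeR adjusted p = 0.0175), and the remaining replicates gave 4.93 (edgeR adjusted p = 0.00241).

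At 3.3 hpf the picture was nearly that of the egg. The wildtype libraries held 14, 13, 6, 11 and 3 counts, or 0.662, 0.663, 0.555, 1.42 and 0.386 CPM. In the last of these, 2 of the 3 counts fell on the opposite strand. Mutant libraries held 97 to 359 counts and ran from 6.14 CPM over a median of 13.4 CPM to 23.1 CPM, so again all 7 exceeded every wildtype library, as did the mutants for 5.06% of the 16897 genes tested. The means were 0.737 ± 0.398 CPM (SD, n = 5) and 14.1 ± 6.06 CPM (SD, n = 7). The log2 fold change was 4.26 (SE 0.455), or 19.1-fold, given as a description because the gene was chosen on this contrast. It was 4.40 (SE 0.515) with the mutant libraries under 100 CPM of ezh2, 3.84 (SE 0.613) in replicates 1 and 2 and 4.37 (SE 0.543) in the others.

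By 24 hpf, wnt5b was well expressed in both genotypes. The 6 wildtype libraries held 158 to 585 counts and ranged from 20.7 CPM over a median of 28.9 CPM to 34.0 CPM. The 7 mutant libraries held 108 to 777 counts and ranged from 33.5 CPM over a median of 39.2 CPM to 41.4 CPM. The groups touched: 6 of 7 mutant libraries lay above every wildtype library, and mutant replicate 2 lay just below wildtype replicate 3. Mutants lay wholly above wildtype for 0.489% of the 18806 genes tested at 24 hpf. The means were 28.3 ± 4.37 CPM (SD, n = 6) and 38.8 ± 2.80 CPM (SD, n = 7), a log2 fold change of 0.45 (SE 0.120), or 1.37-fold, again as a description. With the mutant libraries under 100 CPM of ezh2 it was 0.42 (SE 0.152). In whole embryos, a change in the number of cells that express a gene and a change in RNA per cell cannot be told apart.

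**Figure D1:**
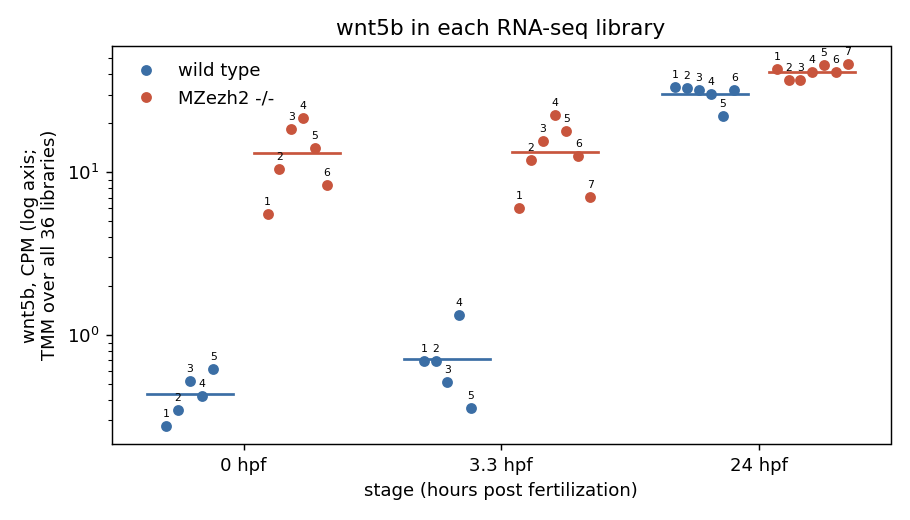
Level of wnt5b in each RNA-seq library (points, numbered by replicate) on a log axis, in CPM scaled by TMM over all 36 libraries, with the group mean as a line. Mutant libraries stand well above wildtype at 0 and 3.3 hpf, whereas at 24 hpf the group means are 30.4 CPM in wildtype and 41.5 CPM in mutants.

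On a scale common to all 36 libraries (TMM over all of them), the 6 groups followed an order from wildtype eggs to mutant embryos of 24 hpf. Wildtype at 0 hpf had 0.437 ± 0.137 CPM (SD, n = 5) and wildtype at 3.3 hpf had 0.718 ± 0.369 CPM (SD, n = 5), and the ranges of these neighbours overlapped. Mutants at 0 hpf came next with 13.1 ± 6.12 CPM (SD, n = 6), with no overlap with the group below, followed by mutants at 3.3 hpf with 13.4 ± 5.82 CPM (SD, n = 7), which overlapped them. Wildtype at 24 hpf had a mean of 30.4 CPM and a median of 32.0 CPM (n = 6). Its lowest library, at 22.1 CPM, fell just under the highest mutant library of 3.3 hpf, at 22.3 CPM. Mutants at 24 hpf were highest, with 41.5 ± 3.77 CPM (SD, n = 7), and on this scale their lowest library, at 36.7 CPM, lay above the highest wildtype library, at 33.3 CPM.

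Seen along development, the mean wildtype level was 42.3-fold higher at 24 hpf than at 3.3 hpf, and the ranges did not overlap. In mutants the same step was 3.11-fold, also without overlap. From 0 to 3.3 hpf the mean levels differed by 1.64-fold in wildtype and 1.02-fold in mutants, and both ranges overlapped. The genotype effect thus shrank by 3.81 on the log2 scale between 3.3 and 24 hpf (24 minus 3.3 hpf, -3.81, SE 0.471), which is the value the gene was chosen on. Of all 21709 genes in the fit over all libraries, the genotype effect was lower at 24 hpf than at 3.3 hpf for 4.82% and higher for 0.272% (edgeR adjusted p below 0.05 and a log2 difference of 1 or more). Ordered by this difference, wnt5b stood at place 142 of 14640 genes, between INSM1 (ENSDARG00000091756) at -3.82 and ENSDARG00000008336 at -3.80.

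Among mutant libraries the early wnt5b levels were spread more widely than at 24 hpf, with a coefficient of variation of 47.2% at 0 hpf, 43.1% at 3.3 hpf and 7.22% at 24 hpf. The level of wnt5b did not sort with that of ezh2 RNA. At 0 hpf the 3 mutant libraries with little ezh2 ran from 5.78 to 23.3 CPM of wnt5b and the 3 with wildtype-like ezh2 from 8.75 to 19.5 CPM. At 3.3 hpf the corresponding ranges were 6.14 to 23.1 CPM and 7.38 to 16.7 CPM. The mutant libraries highest in wnt5b at both early stages, replicate 4, also had a raised share of wnt5b counts on the opposite strand, 14.2% at 0 hpf and 18.9% at 3.3 hpf. Over all genes their share was raised too, at 10.8% and 18.8%. Before 24 hpf only mutant libraries reached 5% over all genes. The part of this in their level was not tested. Without the libraries at or above 5% opposite-strand counts, the log2 fold changes were 4.77 (SE 0.444) at 0 hpf and 3.94 (SE 0.449) at 3.3 hpf.

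**Figure D2:**
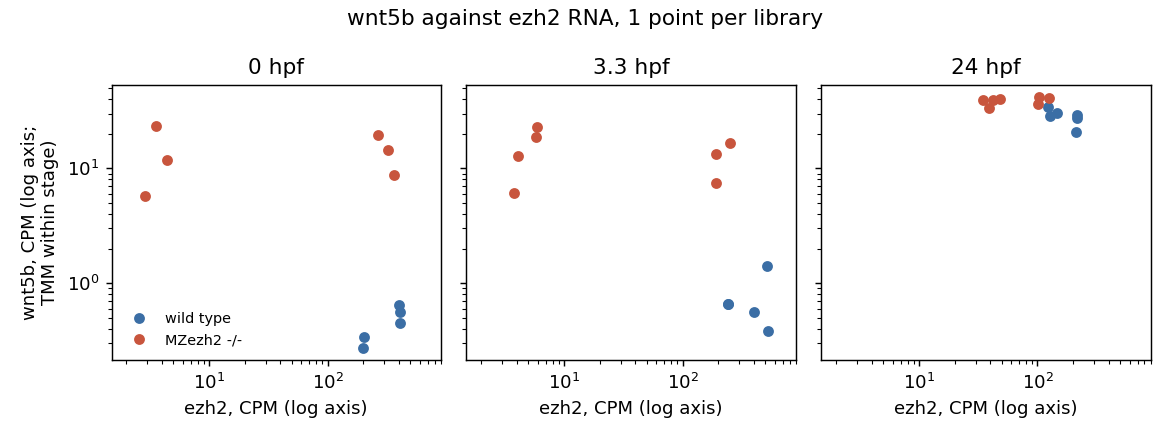
Level of wnt5b against that of ezh2 in each library, both in CPM scaled by TMM within the stage and on log axes, with 1 panel per stage. At 0 and 3.3 hpf the mutant libraries form a low and a high ezh2 group with overlapping wnt5b ranges, and both lie above wildtype in wnt5b.

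To place wnt5b among the genes that work with it, 116 other genes of the Wnt pathway were taken from lists of ligands, receptors, secretion factors, planar cell polarity components, secreted antagonists and the beta-catenin branch. The count filter kept genes with enough counts in either genotype. A gene near 0 in wildtype, as wnt5b was at 0 hpf, was therefore tested only where mutants were high. This favours calls of higher and full separations, both in the lists and in all genes. Whether it does so to the same degree in both was not tested. At 0 hpf, 77 of them had enough counts to be tested, and 12 (15.6%) were called higher in mutants against 6.06% of all genes, with 0 called lower by edgeR or DESeq2 and 1 lower at an unadjusted p below 0.05. At 3.3 hpf, 13 of 85 (15.3%) were called higher against 5.88% of all 16897 genes, and 0 were called lower by either tool against 0.178% (2 lower at an unadjusted p below 0.05). Of these, 10 were called at both stages. At 24 hpf none of 107 was called by edgeR in either direction, against 0.223% called higher and 0.101% called lower of all genes; 8 had an unadjusted p below 0.05, and DESeq2 also called 0. The median log2 fold change of the tested list members was 0.19, 0.11 and -0.01 at 0, 3.3 and 24 hpf, beside -0.02, -0.07 and -0.01 for all genes tested. The counts moved with the replicates used. In replicates 1 and 2 alone 19 list members were called higher at 0 hpf and 1 (PRICKLE2, ENSDARG00000037593, log2 fold change 1.71) at 3.3 hpf, whereas replicates 3 and higher gave 10 at each stage. Leaving out mutant replicate 2 brought the count at 0 hpf to 7. With the mutant libraries under 100 CPM of ezh2 there were 11 at 0 hpf and 9 at 3.3 hpf. The share of all genes called in these subsets is not reported here, so these counts have no background to be read against.

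Of the 25 listed ligands, only 6 had enough counts to be tested at 0 hpf and 8 at 3.3 hpf. Of those tested, only wnt5a was called, the paralog of wnt5b with which it shares receptors. It ran from 0 to 0.298 CPM in wildtype and from 1.53 to 5.88 CPM in mutants at 0 hpf, a log2 fold change of 4.32 (SE 0.642, edgeR adjusted p = 0.00169), with 6 of 6 mutant libraries above every wildtype library. At 3.3 hpf it was 2.94 (SE 0.717, edgeR adjusted p = 0.0233), and the call was lost without wildtype replicate 1 (edgeR adjusted p = 0.0644) and without the mutant libraries at or above 100 CPM of ezh2 (2.60, edgeR adjusted p = 0.107). At 24 hpf its mean was 1.93 ± 0.636 CPM (SD, n = 6) in wildtype and 1.49 ± 0.887 CPM (SD, n = 7) in mutants, a log2 fold change of -0.34 that was not called. The other non-canonical ligands did not pass the test where they had enough counts: wnt4 stood at 0.34, 0.45 and 0.19 at the 3 stages and wnt11f2, the ligand of gastrulation movements known as Silberblick, at 0.89, -0.48 and -0.28. Before 24 hpf wnt11 was too low to test, with 14 counts over the wildtype and 146 over the mutant libraries at 0 hpf (means of 0.144 and 1.52 CPM). All 6 mutant libraries at 0 hpf and 6 of 7 at 3.3 hpf lay above every wildtype library in wnt11, and at 24 hpf its log2 fold change was 0.33. Other untested ligands included wnt8b, with 0 wildtype and 64 mutant counts at 0 hpf and 6 of 6 mutant libraries above every wildtype library. At 3.3 hpf wnt9a held 0 and 32 counts, with 7 of 7 above. Lower in mutants at 0 hpf were wnt4b (means of 0.572 and 0.546 CPM) and WNT8A (ENSDARG00000052910, 1 and 0 counts). WNT8A (ENSDARG00000078507) had 0 counts there. The gene wnt4b could be tested at 3.3 hpf (0.30) and 24 hpf (0.25).

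Of the Frizzled receptors, 4 of 10 tested were called higher at 0 hpf and 2 of 11 at 3.3 hpf, beside 6.06% and 5.88% of all genes. Counts on lists this short rest on few genes and are not a result about the family. FZD3 (ENSDARG00000021664), a receptor of the planar cell polarity pathway, had the largest fold change of the list, with 0 to 0.0746 CPM in wildtype and 0.437 to 9.50 CPM in mutants at 0 hpf. Its log2 fold change was 6.74 (SE 1.11, edgeR adjusted p = 0.00290) at 0 hpf and 4.74 (SE 0.969, edgeR adjusted p = 0.00793) at 3.3 hpf. At 0 hpf it held 2 counts over the wildtype and 426 over the mutant libraries, so it passed the count filter through the mutants. Only 6 of 11 fits that left out 1 library at 0 hpf tested it. The call at 3.3 hpf was lost within each set of replicates, with 6.69 in replicates 1 and 2 (edgeR adjusted p = 0.0673) and 3.19 in the others (edgeR adjusted p = 0.0509). The more abundant FZD3 gene (ENSDARG00000058692) had means of 20.4 CPM in wildtype and 16.0 CPM in mutants at 0 hpf. That log2 fold change was -0.35 (SE 0.529) and was not called. The receptor gene fzd10 reached 2.08 (SE 0.307) and 1.67 (SE 0.331), with 5.99 to 10.6 CPM in mutants against 1.48 to 2.55 CPM in wildtype at 0 hpf. At 3.3 hpf fzd10 was 0.77 in replicates 1 and 2 (edgeR adjusted p = 0.475), and with the replicate block 1.67 (edgeR adjusted p = 0.0534). At 0 hpf alone, fzd4 was called at 2.26 and FZD7 (ENSDARG00000060004) at 1.84. The call of FZD7 was lost without wildtype replicate 3 (edgeR adjusted p = 0.0505). Of 11 fits that left out 1 library, 9 tested fzd4, and its call was lost in 8 of these. With the replicate block the call of fzd4 was lost too (2.49, edgeR adjusted p = 0.0858). At 3.3 hpf fzd4 had means of 9.73 CPM in wildtype and 5.22 CPM in mutants. Its log2 fold change there was -0.90 (SE 0.912) and was not called.

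The list of other Wnt receptors and co-receptors holds ror1, ror2, ryk and gpc4 but also lrp5 and lrp6 of the beta-catenin branch. No gene of it was called of 9 tested at 0 hpf and 10 at 3.3 hpf, at an unadjusted edgeR p below 0.05 in 2 and 3 of them. These were mcam (1.66 and 1.54) and gpc3 (0.89 and 0.91) at both stages and mcama (1.82) at 3.3 hpf, all higher in mutants. At 0 hpf mcama was not tested, with 15 counts over the wildtype and 112 over the mutant libraries. There 6 of 6 mutant libraries lay above every wildtype library in mcama. The genes ror1, ror2 and ryk were all present in wildtype eggs, with means of 36.7 ± 13.5, 65.2 ± 33.6 and 97.6 ± 27.3 CPM (SD, n = 5). Their log2 fold changes at 0 hpf were 0.25 (SE 0.357) for ror1, -0.30 (SE 0.514) for ror2 and -0.15 (SE 0.292) for ryk. The glypican gene gpc4, which helps present Wnt ligands at the cell surface, stood at 0.80 (SE 0.378), with 4 of 6 mutant libraries above every wildtype library and an edgeR adjusted p of 0.294. The other FZD7 gene (ENSDARG00000027589) stood at -0.03 (SE 0.302) at 0 hpf. Of the secretion list, PORCN (ENSDARG00000052558), an acyltransferase that adds the lipid Wnt proteins need for release, was called at 3.3 hpf with 1.18 (SE 0.312, edgeR adjusted p = 0.0368), and the call was lost in 9 of 12 fits that left out 1 library. The more abundant PORCN gene (ENSDARG00000052455) went the other way, from 77.5 CPM in wildtype to 52.3 CPM in mutants at 0 hpf, with 6 of 6 mutant libraries below every wildtype library. Its log2 fold change was -0.57 (SE 0.157, edgeR adjusted p = 0.0489), short of the fold needed for a call, and -0.40 (edgeR adjusted p = 0.164) at 3.3 hpf.

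Within the planar cell polarity list, 4 of 30 tested genes were called higher at 0 hpf and the same 4 of 31 at 3.3 hpf. The shares of all genes called higher were 6.06% and 5.88%. PRICKLE2 (ENSDARG00000037593), a cytoplasmic polarity protein, rose from 40.9 ± 14.3 CPM (SD, n = 5) in wildtype to 144 ± 29.6 CPM (SD, n = 6) in mutants at 0 hpf, a log2 fold change of 1.81 (SE 0.234, edgeR adjusted p = 0.000765), and reached 1.85 (SE 0.146) at 3.3 hpf. DAAM1 (ENSDARG00000009689), a formin that links Dishevelled to the actin cytoskeleton, reached 1.99 (SE 0.356) and 2.12 (SE 0.257). The atypical cadherin gene celsr1 was called at 2.51 and 1.68 and the Dishevelled gene DVL3 (ENSDARG00000103462) at 2.28 and 2.10, but leaving out 1 library ended these calls in 5 of 11 and 9 of 11 fits at 0 hpf and in 8 of 12 and 2 of 12 at 3.3 hpf. Without the mutant libraries at or above 100 CPM of ezh2, celsr1 stood at 2.72 and 1.71 and was no longer called at either stage (edgeR adjusted p = 0.0768 and 0.139). The core component vangl2 was abundant and not called, with a log2 fold change of -0.17 (SE 0.327) at 0 hpf. Other genes that share a symbol with the called ones were also not called at 0 hpf. They were PRICKLE2 (ENSDARG00000020982) at -0.56 (SE 0.342), DAAM1 (ENSDARG00000015059) at -0.29 (SE 0.148) and DVL3 (ENSDARG00000015707) at -0.12 (SE 0.224).

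In the beta-catenin branch, where all genes gave 6.06% and 5.88%, 3 of 17 tested genes were called higher at 0 hpf and 5 of 18 at 3.3 hpf. They were the transcription factor gene tcf7l2 (3.54 and 4.29 on the log2 scale), the R-spondin receptor gene lgr4 (3.14 and 4.21) and the feedback inhibitor gene nkd1 (2.46 and 2.29) at both stages, with the kinase gene gsk3bb (6.24) and the transcription factor gene tcf7 (2.08) at 3.3 hpf. At 0 hpf gsk3bb was not tested, with 2 counts over the wildtype and 305 over the mutant libraries and 6 of 6 mutant libraries above every wildtype library. Of fits that left out 1 library, 6 of 11 tested tcf7l2 at 0 hpf and 7 of 12 tested gsk3bb at 3.3 hpf. At 3.3 hpf lgr4 ran from 0.129 to 0.386 CPM in wildtype and from 2.57 to 7.28 CPM in mutants. Secreted antagonists were rarely expressed early: 2 of 12 could be tested at 0 hpf and 4 at 3.3 hpf, with 0 called by edgeR and 1 at an unadjusted p below 0.05 at each stage. Untested ones at 0 hpf included dkk1b, with 0 counts over the wildtype and 47 over the mutant libraries, dkk1a (1 and 33) and sfrp2 (1 and 25). In each of these, 4 of 6 mutant libraries lay above every wildtype library. Fewer counts in mutants were held by sfrp5 (12 and 9) and szl (14 and 9).

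**Figure D3:**
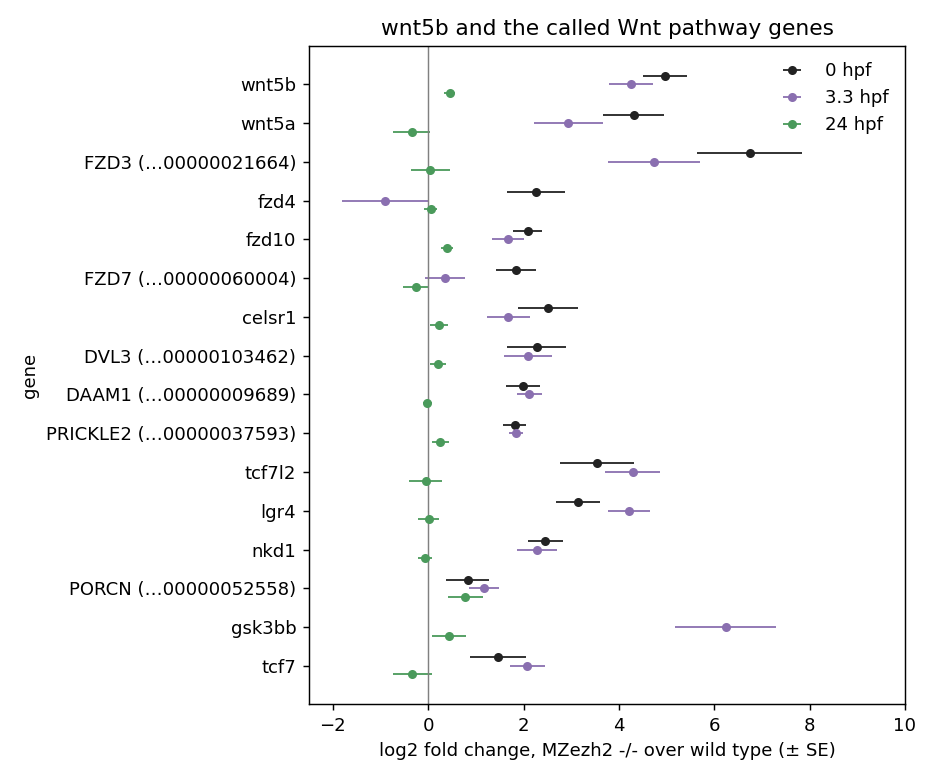
Log2 fold change of MZezh2 mutant over wildtype (± SE) for wnt5b and for the Wnt pathway genes that were called at any stage and named, by stage. The pathway genes shown were called higher at 0 or 3.3 hpf, so their place to the right there follows from how they were picked. The same holds for wnt5b, chosen for its large difference at 3.3 hpf and small one at 24 hpf. At 3.3 hpf fzd4 lies at -0.90.

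Markers of other cells were checked beside these genes. The summed level of 7 genes of ovarian somatic cells, which surround the egg in the ovary, ran from 1.48 to 2.58 CPM in wildtype and from 3.80 to 14.5 CPM in mutants at 0 hpf, with 0 of 2 tested genes called and none at 0 in all libraries. At 3.3 hpf the ranges were 0.926 to 3.22 CPM and 2.36 to 13.5 CPM. Of these genes hsd3b1, which was not tested, had the highest mutant mean at 0 hpf, 3.43 ± 5.37 CPM (SD, n = 6). It held 1 count over the wildtype and 462 over the mutant libraries, and 2 mutant libraries held 0. The summed level of 4 genes of the pectoral fin bud, a site where Wnt signals act later, ran from 1.73 to 3.95 CPM in wildtype and from 15.9 to 42.7 CPM in mutants at 0 hpf. Of 3 tested, tbx5 (log2 fold change 4.27) and hand2 (4.60) were called, where 6.06% of all genes tested were called higher. Most of this sum was tbx5, at 19.6 CPM in mutants, and fgf24 was not called (0.64). Other lists also ran higher in mutants at 0 hpf, at low levels. The sum of 2 muscle genes was 0.298 to 2.02 CPM in wildtype and 2.33 to 3.61 CPM in mutants, and that of 3 neuronal genes 0 to 0.373 CPM and 0.475 to 1.60 CPM. The ranges overlapped for 6 genes of tail bud and notochord (1.28 to 4.07 and 2.33 to 15.3 CPM), of which tbxta was called (2.75, edgeR adjusted p = 0.0129), for 5 of epidermis and fin fold (6.86 to 18.7 and 16.8 to 39.5 CPM) and for 2 of red blood cells (0 to 0.968 and 0.0863 to 3.01 CPM). The embryo at 0 hpf is a single cell, so the lists of later tissues describe genes there and not cells. The part of ovarian somatic cells in the level of wnt5b was not tested.

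The genes beside wnt5b were examined for the same difference. In the order of the RefSeq gene table these are wnk1, ninj2 and erc1b on one side and FBXL14 (ENSDARG00000045801, named fbxl14b there), adipor2 and ttll12 on the other, and FBXL14 lies within the span of wnt5b. The genes erc1b and ninj2 were at or near 0 counts and could not be tested. At 0 hpf FBXL14 stood at 1.09 (SE 0.453, edgeR adjusted p = 0.217), with 0.680 to 2.22 CPM in wildtype and 1.55 to 5.21 CPM in mutants, and at 0.04 (SE 0.697) at 3.3 hpf. The others stood at 0.58 (SE 0.375) for wnk1, 0.09 (SE 0.166) for adipor2 and 0.02 (SE 0.325) for ttll12 at 0 hpf, and none of the tested neighbours was called at any stage. The gene models used for counting were not examined. If the genes overlap there as in the RefSeq table, reads of wnt5b and FBXL14 in shared sequence may be left out of both counts. At 24 hpf the unstranded wnt5b counts were below those on the wnt5b strand alone. They were 2036 against 2058 over wildtype and 2944 against 2981 over mutant libraries. Some reads on the wnt5b strand were thus left out of the counts used, and the gene they overlapped was not examined.

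**Figure D4:**
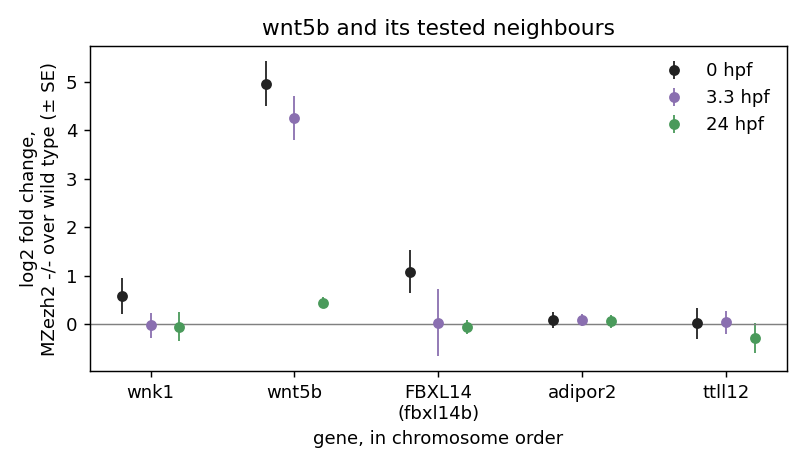
Log2 fold change of MZezh2 mutant over wildtype (± SE) for wnt5b and its 4 tested neighbours, in chromosome order, by stage. At 0 and 3.3 hpf wnt5b stands at 4.97 and 4.26, and the neighbours at 1.09 or less.

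Finally, genes with a pattern like that of wnt5b were sought over all 36 libraries, by Pearson's r of log2 CPM among 21792 genes. This r is a description, since libraries share their stage and genotype. NPR3, the clearance receptor for natriuretic peptides, was nearest (r = 0.977), followed by BMPR2 (ENSDARG00000020057), a receptor for bone morphogenetic proteins (r = 0.972), and by ENSDARG00000091398 (r = 0.966). RNF130 (r = 0.965), the desmosome gene DSP (ENSDARG00000022309) and the ephrin gene EFNA3 (r = 0.964 each), and si:ch211-197h24.9 (r = 0.961) also had a high r. The order depends on the prior count added before the log, which was 2. With 0.5, NPR3 and BMPR2 kept places 1 and 2, but ENSDARG00000091398 stood at place 13 and si:ch211-197h24.9 at 34. NPR3 had mean levels of 0.252 CPM in wildtype and 13.5 CPM in mutants at 0 hpf, 0.197 and 11.4 CPM at 3.3 hpf, and 43.6 and 48.1 CPM at 24 hpf. EFNA3 had 0.0749 and 3.14 CPM at 0 hpf and 20.5 and 18.8 CPM at 24 hpf, so that its mutant mean was the lower of the pair at the last stage. By distance between the 3 genotype fold changes, the nearest of 14639 genes was GCNT4 (ENSDARG00000035198), with log2 fold changes of 5.06, 4.12 and 0.20 at 0, 3.3 and 24 hpf, beside 4.97, 4.26 and 0.45 for wnt5b. TGFBR1 (ENSDARG00000017494), igf2bp2b, MAP1A and ENSDARG00000008336 were the next.

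**Figure D5:**
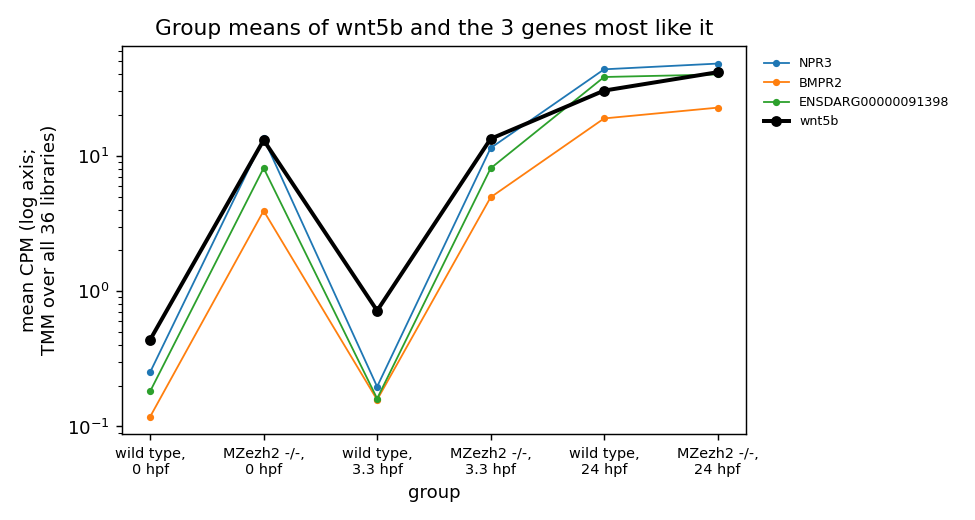
Mean CPM (log axis, TMM over all 36 libraries) of wnt5b and of the 3 genes with the highest r with it at a prior count of 2, in each of the 6 groups. All 4 genes are low in both early wildtype groups and higher in the early mutant groups and at 24 hpf.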

How the data were processed

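RNA-seq counts were used for 36 libraries. As the authors deposited them, each file holds raw counts per gene, for reads placed at 1 site by STAR (2.5.2b per the processing notes) on GRCz10. The unstranded column was used, and library kits at 24 hpf were not told apart. Each stage was fitted alone in edgeR 4.0.16 (R 4.3.3) with genotype as the only term, TMM, filterByExpr by genotype and the robust, two-sided quasi-likelihood F test. P-values were adjusted after Benjamini and Hochberg over the genes that passed the filter. The SE of an edgeR log2 fold change was taken as its size divided by the square root of its F value. CPM are given as mean ± SD. Intervals on single counts cover counting error only. Symbols come from a gene name table, with the ID where several genes share a symbol.

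The gene, the Wnt lists and the markers were chosen with earlier results of these data known. The text names Wnt5 receptors, partners and closest ligands whatever their result (wnt11r was not matched), up to 4 called genes per list and direction, 3 neighbours on each side, and, of the 8 and 5 genes most like wnt5b, those given (1 is not reported here); tcf7 was added after its values were seen. For likeness, genes needed 10 counts in 5 libraries, with a prior count of 2. The labels do not tie same-numbered wildtype and mutant libraries together. At 0 hpf their deviations correlated at 0.101 to 0.625 over genes, and only replicates 1 and 5 matched their own number best in both genotypes. Pairs by number were thus not shown, and a fit with the replicate block was made only as an alternative beside the main one. DESeq2 1.42.0, size factors, no filter, summed strand columns, 1 fit of all libraries and leaving out each library were the alternatives; those by replicate number at 0 and 3.3 hpf, replicates 1 and 2 alone, opposite strand and ezh2 level were chosen after seeing the data. ChIP-seq peaks were not used here.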

Additional observations from a re-analysis of the deposited data

Results flagged for a closer look

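Wildtype replicate 4 at 3.3 hpf, with 1.42 CPM of wnt5b (11 counts), stood apart from the other 4 wildtype libraries of that stage, its gap to the next being 0.732 of the range. Of 6 groups checked for wnt5b it was the only library to do so, and chance gives about 1 in 20 groups. A single flag among 6 groups can therefore arise by chance. Counting error alone allows 0.709 to 2.54 CPM for this library (95% Poisson interval). That interval overlaps those of the other 4, such as 0.353 to 1.13 CPM for replicate 2. Without replicate 4 the log2 fold change at 3.3 hpf was 4.57.

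The genotype effect differed between 24 and 3.3 hpf for 10 of 30 named genes in an interaction test of edgeR over all libraries (21709 genes, Benjamini-Hochberg, with a log2 difference of 1 or more). Of all genes in that fit, 4.82% passed with a lower effect at 24 hpf. All 10 were called higher at 3.3 hpf, which is a ground on which genes were named, so neither their count nor their direction, lower at 24 hpf, is independent of that choice. On the log2 scale the difference was -3.29 for wnt5a (adjusted p = 0.00835), -4.68 for FZD3 (ENSDARG00000021664; 0.00276), -1.19 for fzd10 (0.0153), -2.11 for DAAM1 (ENSDARG00000009689; 7.84e-05), -1.56 for PRICKLE2 (ENSDARG00000037593; 4.28e-05), -4.26 for tcf7l2 (0.000299), -4.17 for lgr4 (4.13e-08), -2.33 for nkd1 (0.000372), -5.70 for gsk3bb (0.000866) and -2.36 for tcf7 (0.0124). The same difference of wnt5b was not tested, since it chose the gene.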

How the results depend on the processing

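The difference of wnt5b at 0 hpf kept its direction and call in all 21 alternatives, with log2 fold changes of 4.77 to 5.15 and edgeR or DESeq2 adjusted p of 4.16e-24 to 0.0175. These alternatives refit the same libraries. They share the limits given above: the test is not independent of the choice of wnt5b, which passed the filter through its mutant libraries. With the replicate block the log2 fold change was 4.93 (edgeR adjusted p = 0.000745) at 0 hpf, 4.30 at 3.3 hpf and 0.44 at 24 hpf. Leaving out 1 library gave 4.77 to 5.15 at 0 hpf, 4.10 to 4.57 at 3.3 hpf, 0.37 to 0.51 at 24 hpf and -4.12 to -3.65 for the change from 3.3 to 24 hpf. Pairs by replicate number were not shown at 3.3 and 24 hpf either (correlations of 0.0183 to 0.589 and -0.0323 to 0.786).

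The count of Wnt list members called higher was less stable: at 0 hpf it was 24 with DESeq2, 35 with all libraries in 1 fit, 19 in replicates 1 and 2 and 7 to 14 when 1 library was left out, and at 3.3 hpf 21, 22, 1 and 10 to 12. The share of all genes called also depends on the setting and is not reported here. These counts therefore describe the settings and are not a result about Wnt genes. With adjusted p alone 1 member was lower at 0 hpf (PORCN, ENSDARG00000052455, -0.57), and in replicates 1 and 2 alone 1 was lower at 0 hpf (FZD8, ENSDARG00000038569, -1.55) and 1 at 24 hpf (RAC1, ENSDARG00000099506, -5.31). With the block at 3.3 hpf, wnt5a (2.62), fzd10 (1.67), PORCN (ENSDARG00000052558, 1.29) and celsr1 (1.95) kept folds close to those above but were no longer called (adjusted p of 0.0525 to 0.111). The cause was not tested. Wildtype wnt5b rests on 3 to 14 counts per library before 24 hpf, which limits the early folds.

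Genes that were not called and lay near 0 changed sign in places, and none of them became called. The neighbour ttll12 moved to -0.0068 without a filter, -0.0080 with all libraries in 1 fit and -0.16 with the replicate block at 0 hpf, and to -0.18 with the block at 3.3 hpf. At 3.3 hpf wnt4b was -0.24 with the summed strand columns and wnt11f2 0.072 with the block. At 24 hpf fzd2 was -0.0031 with DESeq2; with the block, wnk1 was 0.12, vangl2 0.00016 and FZD7 (ENSDARG00000027589) 0.080; with a batch term FZD7 was 0.047; and in replicates 3 and higher FZD7 was 0.13, wnt5a 0.0077 and gpc4 -0.0011. Leaving out 1 library gave, at 0 hpf, -0.087 to 0.19 for ttll12, -0.22 to 0.12 for FZD7 and -0.050 to 0.41 for ror1. At 3.3 hpf it gave -0.13 to 0.20 for wnk1, -0.38 to 0.38 for FBXL14, -0.036 to 0.17 for ttll12, -0.30 to 0.049 for FZD7 and -0.059 to 0.39 for ror1. At 24 hpf it gave -0.22 to 0.34 for wnk1, -0.11 to 0.0069 for FBXL14, -0.32 to 0.074 for vangl2, -0.085 to 0.080 for fzd2, -0.17 to 0.18 for FZD7, -0.12 to 0.0016 for ryk, -0.0074 to 0.19 for gpc4 and -0.37 to 0.0063 for ror2. Under the alternatives chosen after seeing the data, uncalled named genes changed sign in 48 of 153 values and were called in 0.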

Other observations

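Mutant libraries numbered 1 to 4 at 0 hpf held wnt5b levels close to those of the same number at 3.3 hpf. These numbers were picked after the values were seen, and the labels do not tie the numbers of different stages together. Replicates 1 to 4 held 5.78, 11.8, 19.5 and 23.3 CPM at 0 hpf and 6.14, 12.9, 16.7 and 23.1 CPM at 3.3 hpf. The other numbers were less close: replicates 5 and 6 at 0 hpf held 14.6 and 8.75 CPM, and replicates 5, 6 and 7 at 3.3 hpf held 18.7, 13.4 and 7.38 CPM. Mutant replicate 5 also differed in ezh2, with 321 CPM at 0 hpf and 5.75 CPM at 3.3 hpf. At 24 hpf the mutant libraries lay between 33.5 and 41.4 CPM.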
